A study of Homo sapiens with 12 samples.

Results

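The mitochondrial ribosome is built from proteins encoded in the nucleus, and the account here covers the genes of those proteins that carry an MRPL or MRPS symbol. Members were all probe sets whose single annotated gene symbol began with MRPL or MRPS and a number, with pseudogene and antisense symbols left out. This gave 140 of the 54675 probe sets on the array, for 75 genes. Of the 140 probe sets, 127 passed a filter on low signal, and all 75 genes were among the 12886 genes tested. The proteins of 50 genes belong to the large subunit, MRPS30 and MRPS18A among them in spite of their symbols, and those of 25 genes to the small subunit. Probe sets annotated to a pair of genes, such as those that join MRPL51 with SPTLC1 or MRPL53 with CCDC142, were not members.

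The arrays profiled MDA231 cells, a human breast cancer line, in 4 groups of 3 arrays each. The ETX group was scramble cells given ETX, an abbreviation that the labels do not spell out and that is taken here to mean etomoxir, which blocks CPT1. The shCPT-1 and shCPT-2 groups carried short hairpin RNAs against CPT1 and CPT2, delivered per the labels in pGIPZ lentivirus. Cells with a scramble short hairpin RNA were the control for all 3. The labels give CPT1 without an isoform, no dose or duration of ETX for the arrays, and nothing on whether arrays of 1 group stem from separate cultures or clones. The p-values therefore rest on array-to-array spread that could be technical.

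Mitochondria translate a small set of messenger RNAs of their own genome, all of which code for subunits of the respiratory chain and the ATP synthase. The ribosome that does this descends from a bacterial one, so part of its proteins have bacterial kin and the rest were added in the mitochondrial lineage. CPT1 and CPT2 are the carnitine palmitoyltransferases of the outer and inner mitochondrial membrane, which pass long-chain fatty acids into the organelle for beta-oxidation, and the electrons released there feed the respiratory chain that mitochondrial translation helps to build.

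The targeted genes were read first. CPT1A had log2 intensities of 8.12, 8.10 and 8.34 on the shCPT-1 arrays, 9.58, 9.60 and 9.48 on the shCPT-2 arrays, 10.90, 10.80 and 10.97 on the ETX arrays and 9.64, 9.84 and 9.86 on the scramble arrays. CPT2 had 6.61, 6.22 and 6.39 on the shCPT-2 arrays, against 7.46, 7.31 and 7.46 on the scramble arrays. Each short hairpin group thus lay below every scramble array for its own target, and CPT1A was higher with ETX than on any scramble array. Of marker genes, the mesenchymal ones were high (VIM averaged 14.51 and AXL 13.54), and the luminal genes CDH1 and PGR lay below the array medians, while KRT8 (10.82), GATA3 (8.90), EPCAM (8.95), ERBB2 (9.18) and ESR1 (6.99) lay above them. Of markers of other cell types, the leukocyte genes PTPRC and CD14, the endothelial genes CDH5 and VWF and the fibroblast genes COL1A2, COL3A1 and DCN failed the filter on low signal, while CD3E (6.53), PECAM1 (7.13) and COL1A1 (8.14) passed it.

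The scramble arrays did not form a tight group for these genes. The median deviation of the 75 genes from their 12-array means was -0.08 on scramble 1, -0.06 on scramble 2 and 0.03 on scramble 3, and scramble 3 lay above both other scramble arrays for 51 of the 75 genes. The same 2 arrays had the largest difference between the 3′ and 5′ actin control probe sets, a measure of RNA or labelling quality, at 2.25 and 2.19 log2 units, against 1.76 on scramble 3. That difference averaged 1.75 ± 0.06 on ETX arrays, 1.73 ± 0.23 on shCPT-1 arrays, 1.68 ± 0.23 on shCPT-2 arrays and 2.07 ± 0.27 on scramble arrays (SD, n = 3 each). Its part in the results was not tested beyond leaving out arrays and adding it to the fit as a covariate, and many calls described below were lost without scramble 1 and 2. With both left out, the single remaining scramble array was assumed to vary like the other groups.

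**Figure D1:**
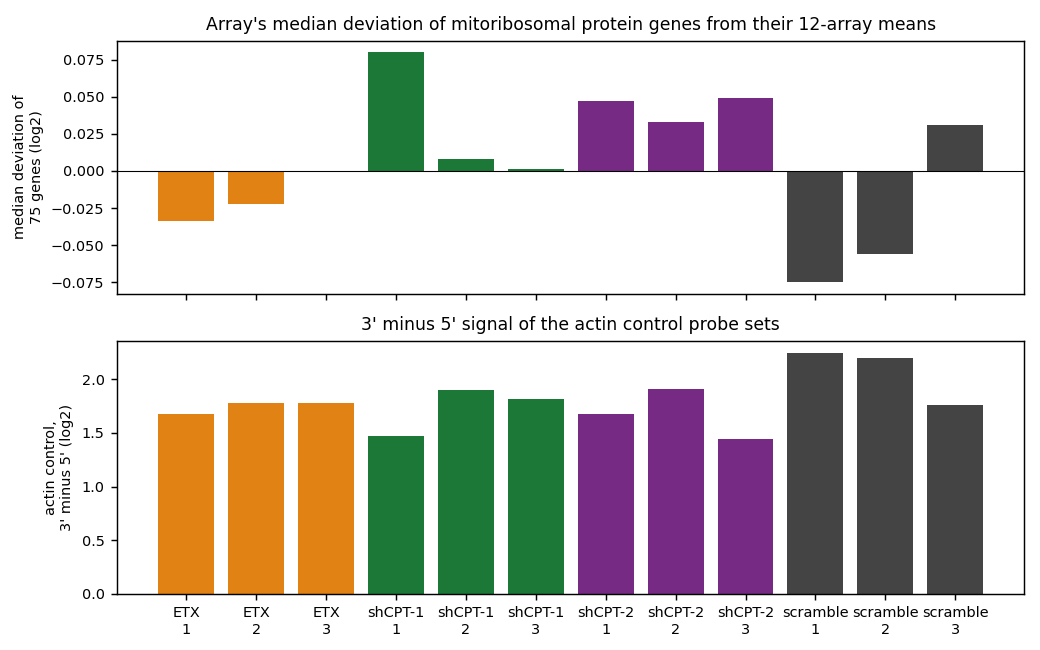
Upper panel: median deviation (log2) of the 75 genes from their 12-array means, 1 bar per array. Lower panel: 3′ minus 5′ signal (log2) of the actin control probe sets on the same arrays, coloured by group. Scramble 1 and scramble 2 have the lowest bars above (-0.08 and -0.06) and the highest below (2.25 and 2.19).

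The mitoribosomal protein genes were well expressed. Their mean log2 intensity over the 12 arrays ran between 8.18 for MRPL44 and 12.47 for MRPS15 with a median of 10.27, whereas the median of all tested genes was 8.69. All 75 exceeded the array median on all 12 arrays, and 74 lay above the median of all tested genes. MRPS15, MRPL3, MRPL51, MRPL47 and MRPL33 had the highest probe set signals and MRPL44, MRPL55, MRPS18A, MRPL23 and MRPS33 the lowest, although signals of different probe sets do not rank genes by transcript number. The arrays are bulk RNA, so a change in each cell and a change in a share of the cells cannot be told apart.

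The genes did not move as a block under any of the 3 treatments. A gene was called when its limma adjusted p, by Benjamini-Hochberg over all tested genes, was under 0.05. With ETX, 14 of the 75 genes were called higher (18.7%) and 17 lower (22.7%), where 21.9% of all tested genes were called higher and 19.4% lower. With shCPT-1, 20 were called higher (26.7%) and 9 lower (12%), against 23.1% and 18% of all tested genes. With shCPT-2, 23 were called higher (30.7%) and 10 lower (13.3%), against 25.6% and 20.5% of all tested genes. The shares lay near the background. In both knockdowns the share of rises was above it and the share of falls below it, a difference that was not tested. The excess of rises was not seen without scramble 1 and 2, for which the median changes are given below. The median log2 change of the 75 genes was 0.02 with ETX, 0.07 with shCPT-1 and 0.09 with shCPT-2, beside medians of -0.01, 0.01 and 0.01 over all tested genes.

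Changes were also small. With ETX they ranged between -0.46 and 0.60, with shCPT-1 between -0.52 and 0.51 and with shCPT-2 between -0.50 and 0.51. MRPL13 with ETX was the 1 gene past a fold of 1.5 in these comparisons, at 1.51. In the moderated F test over the 4 groups, 52 of the 75 genes differed (69.3%), a share near that of all tested genes, of which 69.8% differed. All 3 comparisons share the scramble arrays, so their values stand side by side and their likeness is not evidence of a common response. Without scramble 1 and 2 the median changes were -0.06 with ETX, 0.00 with shCPT-1 and 0.01 with shCPT-2. With 1 scramble array left, fewer genes were called in each direction, both among the 75 and among all tested genes, though not to the same degree. A call lost there does not by itself show that a change is absent. Of the calls, 1 of 14 rises and 7 of 17 falls with ETX were kept under every alternative processing in which the gene was measured, as were 5 of 20 rises and 5 of 9 falls with shCPT-1 and 7 of 23 rises and 4 of 10 falls with shCPT-2.

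**Figure D2:**
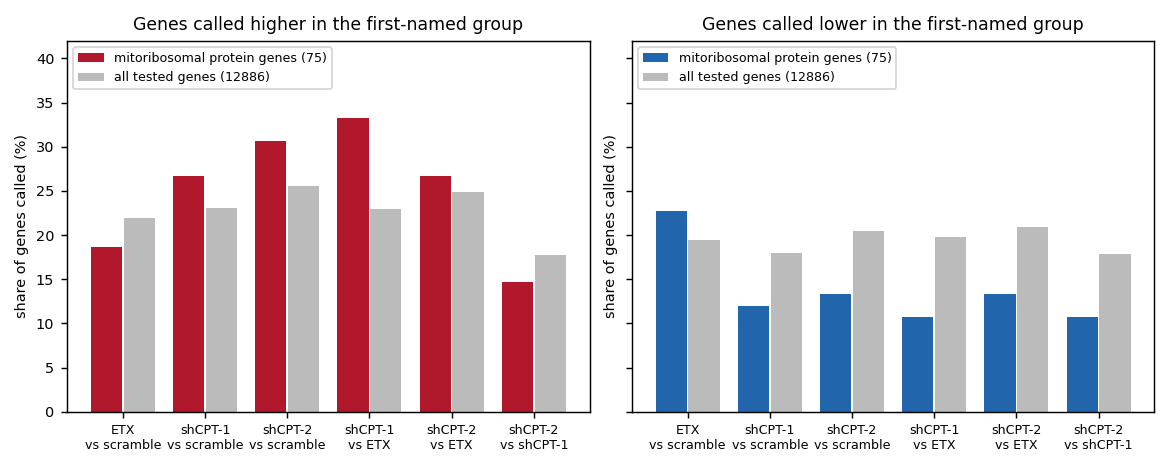
Share of genes called higher (left) or lower (right) in the first-named group of each comparison, as a percentage of the 75 mitoribosomal protein genes (coloured bars) and of all 12886 tested genes (grey bars). With ETX against scramble the coloured bars stand at 18.7% higher and 22.7% lower, and with shCPT-2 at 30.7% and 13.3%.

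By subunit, the large subunit had 11 of 50 genes higher (22%) and 13 lower (26%) with ETX. It had 11 higher (22%) and 7 lower (14%) with shCPT-1, and 14 higher (28%) and 7 lower (14%) with shCPT-2. The small subunit had 3 of 25 higher (12%) and 4 lower (16%) with ETX. It had 9 higher (36%) and 2 lower (8%) with shCPT-1, and 9 higher (36%) and 3 lower (12%) with shCPT-2. Of all tested genes, 21.9% were higher and 19.4% lower with ETX, 23.1% and 18% with shCPT-1, and 25.6% and 20.5% with shCPT-2. The small subunit had median deviations of -0.139 on scramble 1 and -0.093 on scramble 2, beside -0.055 and -0.03 for the large subunit. The classes were not counted without those arrays. Among the 44 genes with bacterial kin 15 were higher (34.1%) and 5 lower (11.4%) with shCPT-1. Among the 30 specific to mitochondria 5 were higher (16.7%) and 4 lower (13.3%). With shCPT-2 the same classes had 13 higher (29.5%) and 7 lower (15.9%), and 10 higher (33.3%) and 3 lower (10%). The class with the larger share of rises was thus not the same in both knockdowns. With ETX the classes had 9 higher (20.5%) and 8 lower (18.2%), and 5 higher (16.7%) and 8 lower (26.7%). The difference between these classes was not tested.

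**Figure D3:**
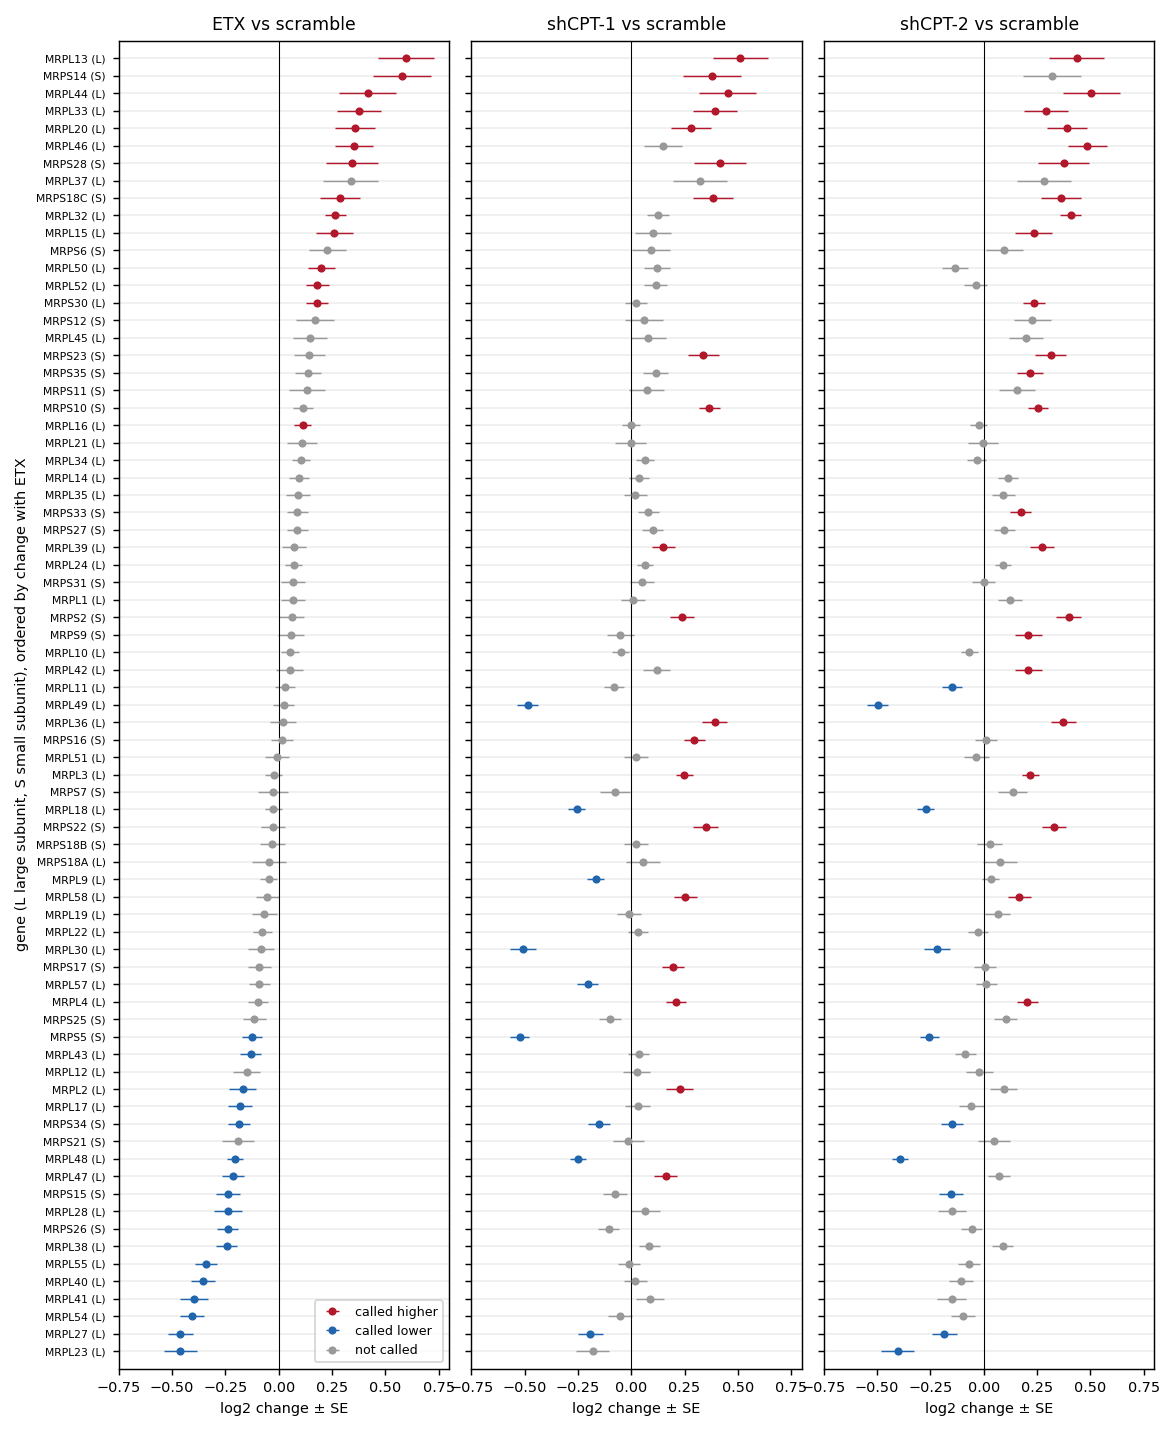
Log2 change with its standard error for each of the 75 genes in the 3 comparisons with scramble, ordered by the change with ETX (L, large subunit; S, small subunit). Red points were called higher, blue points lower and grey points neither. MRPL13 stands at the top with ETX (0.60) and MRPL23 at the bottom (-0.46), while MRPL49, near 0 with ETX, lies at -0.49 and -0.50 in the knockdowns.

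With ETX the clearest changes were falls in large subunit genes. MRPL27, whose bacterial counterpart L27 reaches to the peptidyl transferase centre, had log2 intensities of 10.50, 10.62 and 10.55 on ETX arrays, against 11.04, 11.03 and 10.99 on scramble arrays. The groups did not overlap, and the change was -0.46 ± 0.06 (SE, limma adjusted p = 0.000119). MRPL23, kin to the bacterial protein L23 at the mouth of the exit tunnel, had 8.99, 9.01 and 9.11 on ETX arrays, against 9.56, 9.44 and 9.49 on scramble arrays. It fell by 0.46 ± 0.08 on the log2 scale (adjusted p = 0.000721), again with no overlap.

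Falls with ETX in genes of mitochondria-specific proteins included MRPL54, MRPL41 and 3 genes of the central protuberance. MRPL54 had 9.14, 9.21 and 9.25 on ETX arrays, against 9.54, 9.63 and 9.66 on scramble arrays (-0.41 ± 0.06, adjusted p = 0.000185). MRPL41 had 10.24, 10.27 and 10.36 on ETX arrays, against 10.73, 10.73 and 10.60 on scramble arrays (-0.40 ± 0.07, adjusted p = 0.000656). MRPL40, MRPL38 and MRPL48 encode proteins of the central protuberance, the crown of the large subunit where bacterial ribosomes hold their 5S RNA. All 3 fell, by 0.35 ± 0.06 for MRPL40, 0.24 ± 0.05 for MRPL38 and 0.20 ± 0.04 for MRPL48. MRPL55, whose protein was put in neither class, fell by 0.34 ± 0.05. The falls of MRPL23, MRPL27, MRPL54, MRPL41, MRPL40, MRPL55 and MRPL48 kept their call under every alternative in which they were measured, leaving out scramble 1 and 2 included. Of the smaller falls, those of MRPL38 (-0.16), MRPL28 (-0.24), MRPS26 (-0.21) and MRPS15 (-0.19) missed the threshold without those 2 arrays.

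MRPL27 starts 45 bp from EME1, a gene of a DNA repair nuclease that is read in the opposite direction, and EME1 also fell with ETX (-0.35 ± 0.07, adjusted p = 0.0022), a call lost without scramble 1 and 2 (-0.27, adjusted p = 0.0893). The RefSeq promoter window of MRPL27 (GRCh38.p14, chr17:50373135-50373434, minus strand, 250 bases before to 50 after the start) is shown because it spans the space between these starts. Capitals mark the ETS motif CCGGAAG, the core bound by the GA-binding protein GABPA, which occurs at 2 places.
MRPL27: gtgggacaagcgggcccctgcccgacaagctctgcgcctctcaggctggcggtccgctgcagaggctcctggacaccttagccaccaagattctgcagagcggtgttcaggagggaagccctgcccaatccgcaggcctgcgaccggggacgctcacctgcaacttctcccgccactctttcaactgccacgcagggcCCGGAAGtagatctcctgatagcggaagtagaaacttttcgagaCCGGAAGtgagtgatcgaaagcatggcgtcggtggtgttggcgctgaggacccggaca

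The larger rises with ETX were mostly much smaller when scramble 1 and 2 were left out. Which of the scramble arrays were off was not tested, and 23 genes were called higher with ETX when scramble 3 was left out instead. MRPL13, kin to bacterial L13, had 10.83, 10.85 and 10.94 on ETX arrays, against 10.01, 10.21 and 10.62 on scramble arrays. The groups did not overlap and the change was 0.60 ± 0.13 (adjusted p = 0.00344), but it was 0.26 (adjusted p = 0.163) against scramble 3 alone. MRPS14, of the small subunit head, had 10.36, 10.36 and 10.37 on ETX arrays, against 9.54, 9.67 and 10.15 on scramble arrays (0.58 ± 0.14, adjusted p = 0.00525). Its change was 0.22 (adjusted p = 0.261) without scramble 1 and 2, and 0.15 (adjusted p = 0.113) on its other kept probe set. MRPL44, MRPL33, MRPL20, MRPL46, MRPS28, MRPS18C and MRPL15 were likewise called higher with ETX, by 0.26 to 0.42, and missed the threshold without scramble 1 and 2, with changes of 0.03 to 0.21.

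MRPL32 was the exception among the larger rises with ETX. Its protein matures by cleavage with the m-AAA protease before it enters the large subunit. It had 11.09, 11.09 and 11.05 on ETX arrays, against 10.79, 10.82 and 10.82 on scramble arrays. The 3 scramble arrays were close together, and the change of 0.27 ± 0.05 (adjusted p = 0.00152) kept its call under every alternative. PSMA2, a proteasome gene that starts 202 bp away in the opposite direction, rose by 0.40 ± 0.11 (adjusted p = 0.0115), though by 0.21 (adjusted p = 0.302) without scramble 1 and 2.

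**Figure D4:**
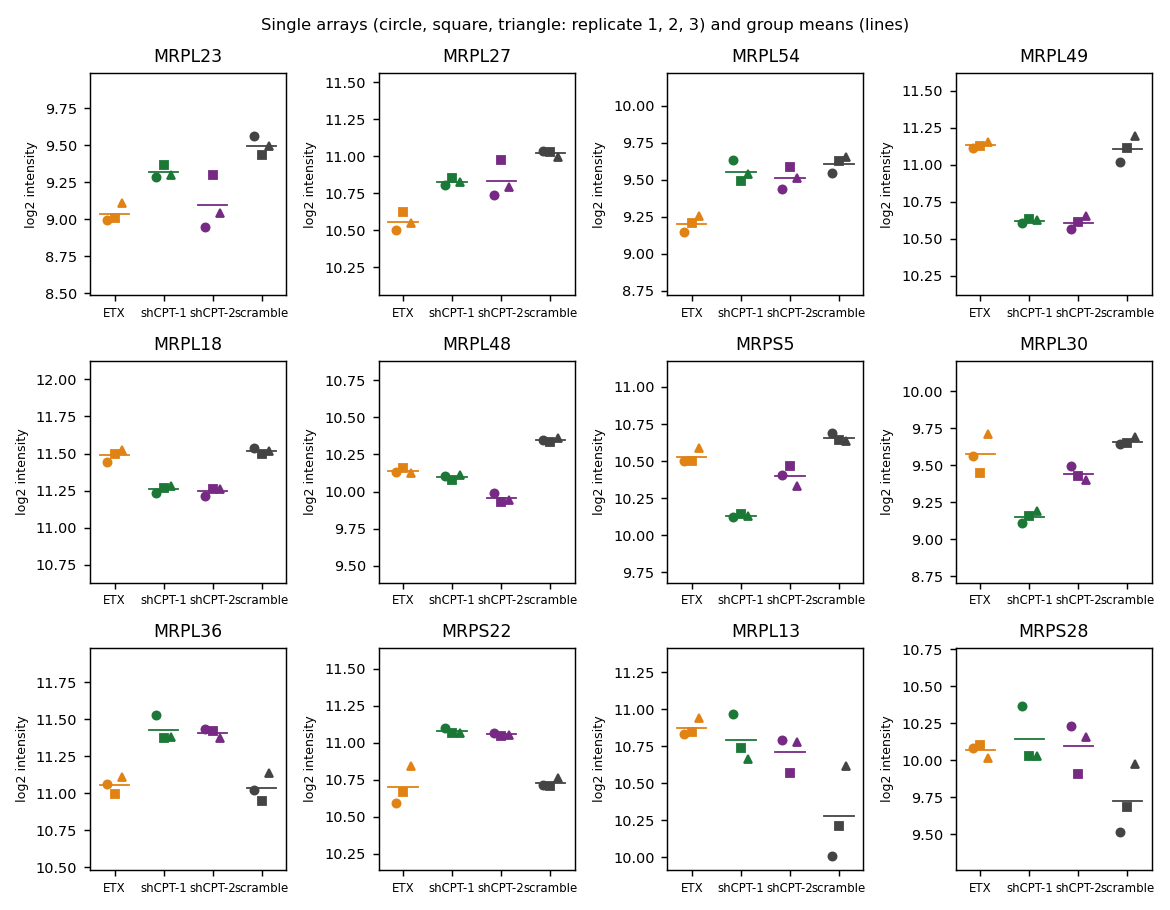
Log2 intensity of 12 of the genes on single arrays (circle, square and triangle for replicates 1, 2 and 3) with group means as lines, with the same span on every vertical axis. MRPL49 and MRPL18 are low in both knockdown groups alone, MRPL27 and MRPL54 are lowest with ETX, and in MRPL13 and MRPS28 the scramble arrays are spread from low (replicates 1 and 2) to near the other groups (replicate 3).

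In the knockdowns the clearest falls were partly in other genes. MRPL48 fell in both knockdowns and MRPL23 with shCPT-2, as both did with ETX. MRPL49, which encodes a mitochondria-specific protein of the large subunit, had log2 intensities of 10.60, 10.63 and 10.62 on shCPT-1 arrays and 10.56, 10.61 and 10.65 on shCPT-2 arrays, against 11.02, 11.11 and 11.19 on scramble arrays. All 6 knockdown arrays lay below all scramble arrays. The change was -0.49 ± 0.05 with shCPT-1 (adjusted p = 8.43e-06) and -0.50 ± 0.05 with shCPT-2 (adjusted p = 5.28e-06). On ETX arrays MRPL49 had 11.11, 11.13 and 11.15, close to scramble (0.02 ± 0.05, adjusted p = 0.73). The knockdown arrays were lower than the ETX arrays as well, by -0.51 ± 0.05 with shCPT-1 (adjusted p = 4.32e-06) and -0.52 ± 0.05 with shCPT-2 (adjusted p = 3.25e-06). The means compared there hold no scramble array.

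MRPL49 starts 49 bp from FAU, which is read in the opposite direction and encodes the small subunit protein RPS30 of the cytosolic ribosome fused to a ubiquitin-like protein. FAU fell with shCPT-1 (-0.26 ± 0.05, adjusted p = 0.000957) and with shCPT-2 (-0.28 ± 0.05, adjusted p = 0.000374), and its change with ETX was -0.08 ± 0.05 (adjusted p = 0.199). Both falls kept their call without scramble 1 and 2. The window of MRPL49 (GRCh38.p14, chr11:65121933-65122232, plus strand) is shown for this shared start region. Capitals mark the 1 E-box of the window, CACGTG, the core to which MYC and related factors bind. The E-box lies near the first base of the window and not between the starts of MRPL49 and FAU.
MRPL49: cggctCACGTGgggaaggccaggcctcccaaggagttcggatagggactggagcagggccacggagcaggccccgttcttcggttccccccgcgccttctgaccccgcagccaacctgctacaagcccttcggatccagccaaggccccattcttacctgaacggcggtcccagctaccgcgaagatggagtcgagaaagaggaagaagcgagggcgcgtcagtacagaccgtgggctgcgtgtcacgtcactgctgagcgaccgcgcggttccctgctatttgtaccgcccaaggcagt

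MRPL30 and MRPS5 were higher with shCPT-2 than with shCPT-1, and lower in both than in scramble. MRPL30, kin to bacterial L30, had 9.49, 9.43 and 9.40 on shCPT-2 arrays and 9.11, 9.16 and 9.19 on shCPT-1 arrays, against 9.64, 9.65 and 9.69 on scramble arrays. It fell by 0.51 ± 0.06 with shCPT-1 (adjusted p = 3.21e-05) and by 0.22 ± 0.06 with shCPT-2 (adjusted p = 0.00996), and the shCPT-2 arrays exceeded the shCPT-1 arrays by 0.29 ± 0.06 (adjusted p = 0.0025). MRPL30 had 3 other kept probe sets, on which that difference ran between 0.13 and 0.17 and was not called, and on which the change with shCPT-1 was -0.48 and -0.42 (both called) and -0.01. The last of these was called higher with ETX (0.40, adjusted p = 0.0128), where the 3 others ran between -0.23 and -0.08 and were not called. The fall with shCPT-2 missed the threshold without scramble 1 and 2 (-0.25, adjusted p = 0.0601) and with the actin covariate (-0.21, adjusted p = 0.0502). MRPS5, whose bacterial counterpart lines the channel by which messenger RNA enters, had 10.40, 10.46 and 10.33 on shCPT-2 arrays and 10.12, 10.14 and 10.13 on shCPT-1 arrays, against 10.69, 10.64 and 10.63 on scramble arrays. It fell by 0.52 ± 0.05 with shCPT-1 (adjusted p = 2.82e-06) and by 0.26 ± 0.05 with shCPT-2 (adjusted p = 0.000622), and the 2 knockdowns differed by 0.27 ± 0.05 (adjusted p = 0.000652). On a probe set free of suffixes that mark possible cross-hybridisation that difference was 0.13 (adjusted p = 0.448). The fall there was -0.26 with shCPT-2 (adjusted p = 0.0821) and -0.39 with shCPT-1 (adjusted p = 0.0172). On the other such probe set, with limma p adjusted over all kept probe sets, the knockdowns differed by 0.03 (adjusted p = 0.857). Its changes were -0.29 with shCPT-2 (adjusted p = 0.0171), -0.32 with shCPT-1 (adjusted p = 0.0129) and -0.32 with ETX (adjusted p = 0.0131). MRPS5 was also called lower with ETX (-0.12 ± 0.05, adjusted p = 0.0471), a call that most of the alternatives removed.

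The start of MRPL30 lies 126 bp from that of MITD1, a gene active at the end of cell division, in the opposite direction. MITD1 fell by 0.57 ± 0.06 with shCPT-1 (adjusted p = 6.13e-06) and by 0.16 ± 0.06 with shCPT-2 (adjusted p = 0.0326), the second of which was not called without scramble 1 and 2 (-0.19, adjusted p = 0.115). The window of MRPL30 (GRCh38.p14, chr2:99180934-99181233, plus strand) holds, in capitals, 1 ETS motif read on the other strand (CTTCCGG) and 1 match to the motif of NRF1, a regulator of nuclear genes for mitochondrial proteins.
MRPL30: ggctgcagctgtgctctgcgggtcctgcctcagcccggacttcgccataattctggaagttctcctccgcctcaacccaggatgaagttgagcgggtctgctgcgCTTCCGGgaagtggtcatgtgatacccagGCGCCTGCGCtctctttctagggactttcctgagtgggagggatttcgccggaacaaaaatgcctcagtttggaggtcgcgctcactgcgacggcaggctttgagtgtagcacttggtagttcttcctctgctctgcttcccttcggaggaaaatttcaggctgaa

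MRPL18 and MRPL48, both of the central protuberance, fell in both knockdowns. MRPL18, kin to the bacterial protein that binds 5S RNA, had 11.23, 11.27 and 11.28 on shCPT-1 arrays and 11.21, 11.26 and 11.26 on shCPT-2 arrays, against 11.54, 11.50 and 11.52 on scramble arrays. The changes were -0.26 ± 0.04 (adjusted p = 0.000273) and -0.27 ± 0.04 (adjusted p = 0.000137), with no overlap between knockdown and scramble arrays. MRPL48 had 9.99, 9.93 and 9.94 on shCPT-2 arrays, 10.11, 10.07 and 10.11 on shCPT-1 arrays and 10.13, 10.16 and 10.12 on ETX arrays, against 10.35, 10.33 and 10.36 on scramble arrays. It lay below scramble in all 3 groups, and the shCPT-2 arrays lay below the shCPT-1 arrays by -0.14 ± 0.04 (adjusted p = 0.0112). MRPL11, the stalk base protein kin to bacterial L11, fell with shCPT-2 (-0.15 ± 0.05, adjusted p = 0.0206). MRPL23 fell with shCPT-2 (-0.40 ± 0.08, adjusted p = 0.00102), while with shCPT-1 its change was -0.18 ± 0.08 (adjusted p = 0.0813).

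Rises in the knockdowns that did not depend on the 2 low scramble arrays were seen in both subunits. MRPL36, a short zinc-binding protein of the large subunit, had 11.53, 11.37 and 11.38 on shCPT-1 arrays and 11.43, 11.42 and 11.37 on shCPT-2 arrays, against 11.02, 10.95 and 11.14 on scramble arrays. It rose by 0.39 ± 0.06 (adjusted p = 0.00024) and 0.37 ± 0.06 (adjusted p = 0.000272), and its change with ETX was 0.02 ± 0.06. MRPS22, a mitochondria-specific protein of the small subunit, had 11.10, 11.07 and 11.06 on shCPT-1 arrays and 11.07, 11.05 and 11.05 on shCPT-2 arrays, against 10.72, 10.71 and 10.76 on scramble arrays. The rises were 0.35 ± 0.06 (adjusted p = 0.000398) and 0.33 ± 0.06 (adjusted p = 0.000497), with wide gaps between knockdown and scramble arrays.

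MRPS10, kin to bacterial S10, rose by 0.37 ± 0.05 with shCPT-1 (adjusted p = 5.65e-05) and by 0.25 ± 0.05 with shCPT-2 (adjusted p = 0.000756). MRPL3, a core protein of the large subunit, had 12.50, 12.60 and 12.58 on shCPT-1 arrays and 12.53, 12.55 and 12.52 on shCPT-2 arrays, against 12.33, 12.32 and 12.29 on scramble arrays. Its rises of 0.25 ± 0.04 and 0.22 ± 0.04 were small and its arrays close together. MRPS23 rose by 0.34 ± 0.07 with shCPT-1 and by 0.31 ± 0.07 with shCPT-2, but neither held without scramble 1 and 2 (0.23, adjusted p = 0.116, and 0.21, adjusted p = 0.136). MRPL2 rose with shCPT-1 by 0.23 ± 0.06 (adjusted p = 0.0117) and MRPS30 with shCPT-2 by 0.24 ± 0.05 (adjusted p = 0.00269), and both calls held without those arrays. The other kept probe sets of MRPS30 were not called with shCPT-2, at 0.07 (adjusted p = 0.431) and 0.13 (adjusted p = 0.101). MRPL58 is a peptidyl-tRNA hydrolase built into the large subunit, and MRPL4 is kin to a protein that lines the exit tunnel in bacteria. MRPL58 and MRPL4 were chosen for mention after their values were seen. Both were called higher in both knockdowns, by 0.17 to 0.25, and none of these calls held without scramble 1 and 2, where MRPL58 was at 0.14 and 0.05 and MRPL4 at 0.17 and 0.16 with shCPT-1 and shCPT-2.

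Some genes differed between the knockdowns, by a test of that difference itself. MRPS16 had 9.84, 9.85 and 9.79 on shCPT-2 arrays and 10.17, 10.07 and 10.09 on shCPT-1 arrays, against 9.74, 9.80 and 9.90 on scramble arrays. It rose with shCPT-1 (0.30 ± 0.05, adjusted p = 0.000485), and the shCPT-2 arrays were lower than the shCPT-1 arrays by -0.29 ± 0.05 (adjusted p = 0.000724). On its other kept probe set neither was called: the change with shCPT-1 was 0.08 (adjusted p = 0.521) and the difference between the knockdowns -0.09 (adjusted p = 0.494). MRPL32 had 11.28, 11.10 and 11.28 on shCPT-2 arrays and 10.95, 10.92 and 10.94 on shCPT-1 arrays, so that it was higher with shCPT-2 than with shCPT-1 by 0.28 ± 0.05 (adjusted p = 0.000885) and rose against scramble by 0.41 ± 0.05 (adjusted p = 3.33e-05). MRPS2, kin to bacterial S2, had 9.85, 9.78 and 9.87 on shCPT-2 arrays and 9.76, 9.61 and 9.64 on shCPT-1 arrays, against 9.38, 9.38 and 9.53 on scramble arrays. It rose by 0.40 ± 0.06 with shCPT-2 (adjusted p = 0.000128) and by 0.24 ± 0.06 with shCPT-1 (adjusted p = 0.00581), and the second missed the threshold without scramble 1 and 2 (0.14, adjusted p = 0.215). Its difference between the knockdowns was 0.16 (adjusted p = 0.0497) and was lost in 15 of 25 alternatives.

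Between shCPT-2 and shCPT-1, 11 of the 75 genes were higher and 8 lower in shCPT-2 (14.7% and 10.7%), where 17.7% of all tested genes were higher and 17.8% lower, and the median change was -0.01. Besides MRPL32, MRPL30 and MRPS5, MRPL46 (0.34 ± 0.09), MRPS9 (0.26 ± 0.06), MRPL57 (0.22 ± 0.05) and MRPL9 (0.20 ± 0.04) were higher with shCPT-2, and MRPL46 and MRPS9 are a central protuberance protein and a relative of bacterial S9. Besides MRPS16, MRPL50 (-0.26 ± 0.06), MRPL41 (-0.24 ± 0.07), MRPL23 (-0.22 ± 0.08) and MRPL28 (-0.21 ± 0.07) were lower with shCPT-2. The call of MRPL23 (adjusted p = 0.0424) was lost in 14 of 24 alternatives, that of MRPL28 in 4 of 24, each without 1 knockdown array, and that of MRPL41 in 3 of 24, with -0.13 (adjusted p = 0.115) on the mean of its kept probe sets. MRPL50 had 9.24, 9.15 and 9.12 on shCPT-2 arrays, against 9.47, 9.39 and 9.42 on shCPT-1 arrays, with no overlap.

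In the comparisons of the knockdowns with ETX the difference of means holds no scramble array, although its standard error and p come from the fit of all 12 arrays. MRPL32 and MRPS26 lost their calls for shCPT-1 against ETX without scramble 1 and 2. With shCPT-1, 25 genes were higher and 8 lower than with ETX (33.3% and 10.7%), where 22.9% of all tested genes were higher and 19.8% lower. With shCPT-2, 20 were higher and 10 lower (26.7% and 13.3%), where 24.9% were higher and 20.9% lower. The medians were 0.02 with shCPT-1 and 0.08 with shCPT-2, beside 0.02 over all tested genes in both. Genes high against ETX were partly those that fell with ETX, such as MRPL41 with 10.77, 10.80 and 10.76 on shCPT-1 arrays, against 10.24, 10.27 and 10.36 on ETX arrays (0.49 ± 0.07, adjusted p = 7.59e-05). MRPL2, kin to the bacterial L2 near the peptidyl transferase centre, had 9.44, 9.53 and 9.48 on shCPT-1 arrays, against 9.13, 9.08 and 9.04 on ETX arrays (0.40 ± 0.06, adjusted p = 0.000258). MRPL47 was 0.38 ± 0.05 higher with shCPT-1 and 0.29 ± 0.05 higher with shCPT-2 than with ETX. MRPL49, MRPL30, MRPS5 and MRPL18 were lower with shCPT-1 than with ETX, and MRPL49, MRPL50, MRPL18 and MRPL52 had the largest falls with shCPT-2 relative to ETX.

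Members called the same way in all 3 comparisons with scramble were MRPL13, MRPL20, MRPL33, MRPL44, MRPS18C and MRPS28 on the higher side and MRPL27, MRPL48, MRPS34 and MRPS5 on the lower side. The 6 higher genes had low values on scramble 1 and 2, and none of their 18 calls held without these arrays. MRPS28, for example, had 10.09, 10.10 and 10.02 on ETX arrays, 10.37, 10.03 and 10.03 on shCPT-1 arrays and 10.23, 9.91 and 10.15 on shCPT-2 arrays, against 9.52, 9.68 and 9.97 on scramble arrays, and its shCPT-2 arrays overlapped scramble 3. Of the 4 lower genes, MRPL48 kept its call in all 3 comparisons under every alternative. MRPS34 was lower by 0.15 to 0.19 and MRPS5 by 0.12 to 0.52. Without scramble 1 and 2 all 3 calls of MRPS34 were lost (-0.15 with ETX, -0.11 with shCPT-1 and -0.11 with shCPT-2), as were the call of MRPS5 with ETX (-0.10, adjusted p = 0.313) and those of MRPL27 with shCPT-1 (-0.17, adjusted p = 0.201) and shCPT-2 (-0.16, adjusted p = 0.2).

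MRPS18C, 1 of 3 human relatives of bacterial S18, shares its start region with HELQ, a helicase of DNA repair, at 175 bp. HELQ rose by 0.33 ± 0.06 with ETX (adjusted p = 0.000737), by 0.37 ± 0.06 with shCPT-1 (adjusted p = 0.000176) and by 0.38 ± 0.06 with shCPT-2 (adjusted p = 0.000117), and MRPS18C by 0.29 ± 0.09, 0.38 ± 0.09 and 0.36 ± 0.09. HELQ kept all 3 calls without scramble 1 and 2, at 0.39, 0.44 and 0.45, and MRPS18C kept none, at 0.12, 0.22 and 0.20. The window of MRPS18C (GRCh38.p14, chr4:83455808-83456107, plus strand) holds 1 ETS motif and 1 E-box, in capitals.
MRPS18C: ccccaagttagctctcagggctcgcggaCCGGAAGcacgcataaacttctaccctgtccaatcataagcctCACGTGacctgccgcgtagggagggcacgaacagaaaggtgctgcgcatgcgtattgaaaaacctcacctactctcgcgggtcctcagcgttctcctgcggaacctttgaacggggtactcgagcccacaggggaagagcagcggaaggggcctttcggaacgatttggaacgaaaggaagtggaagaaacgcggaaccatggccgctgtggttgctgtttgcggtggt

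Divergent gene pairs such as these were common among the members. RefSeq windows were held for 67 of the 75 genes, and 20 of the 67 (29.9%) had a protein-coding gene that starts within 1000 bp on the other strand, against 12.3% of all protein-coding genes. For 19 of the 20 the neighbour was tested too. With shCPT-1, both genes of a pair were called lower for MRPL49 with FAU, MRPL30 with MITD1 and MRPL57 with SKA3, and both higher for MRPS18C with HELQ. With shCPT-2, both were lower for MRPL49 with FAU, MRPL30 with MITD1 and MRPL27 with EME1, and both higher for MRPS18C with HELQ. With ETX, both were lower for MRPL27 with EME1, both higher for MRPL32 with PSMA2 and MRPS18C with HELQ, and the pair of MRPL40 and the histone chaperone gene HIRA was called in opposite directions (-0.35 ± 0.06 and 0.32 ± 0.11). Other pairs had 1 gene called and not its partner, such as MRPS12, at 0.17 ± 0.09 with ETX, beside SARS2, a mitochondrial seryl-tRNA synthetase gene that fell by 0.50 ± 0.07. Without scramble 1 and 2, both genes stayed called for MRPL49 with FAU in both knockdowns and for MRPL30 with MITD1 with shCPT-1. In the other pairs named at least 1 gene lost its call, among them MRPL57 with shCPT-1 (-0.21, adjusted p = 0.0585), HIRA with ETX (0.21, adjusted p = 0.36) and EME1 with shCPT-2 (-0.11, adjusted p = 0.428), while SARS2 kept its own. The call of MRPL27 with shCPT-2 was lost in 7 of 24 alternatives. MRPL46 and MRPS11 are themselves a pair at 320 bp. How often both genes of a divergent pair were called alike over all protein-coding genes was not counted, so these pairs have no background share. Many genes farther along the chromosome from MRPL30 and MRPL49, described below, were also called lower in the knockdowns. Around MRPL57 more such genes were called higher than lower in both knockdowns.

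Motifs were counted in the promoter windows on both strands, in any window of a gene. The ETS motif CCGGAAG was in the windows of 29 of the 67 members (43.3%), against 16.5% of all protein-coding genes. The YY1 motif AAGATGGCG was in 12 (17.9%, against 3.21%), the NRF1 motif, searched at its full palindromic length with 1 free base, in 9 (13.4%, against 9.66%) and the E-box CACGTG in 9 (13.4%, against 10.9%). These are matches of letters in the reference sequence and give no occupancy. The part of shared start regions or of motifs in the changes above was not tested.

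A member's change also went with that of the genes around it on the chromosome. For each member the 10 tested genes on either side in RefSeq gene order were taken, and the median of their log2 changes was set beside the member's own. Across the 75 members Pearson's r between the member and its flanking median was 0.42 with ETX, 0.47 with shCPT-1 and 0.48 with shCPT-2, as a description over genes that share the same arrays and, in part, the same flanking genes. The same r was not taken over all tested genes, so it is not shown to be particular to the members. The spread of flanking medians was wider in the knockdowns. Over all 12849 genes with flanking genes, the lowest and highest 1% of flanking medians began at -0.20 and 0.25 with ETX, at -0.40 and 0.41 with shCPT-1 and at -0.35 and 0.38 with shCPT-2.

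MRPL30 on chromosome 2 had a flanking median of -0.45 with shCPT-1, beyond the lowest 1% of genes, with 17 of its 20 flanking genes called lower and 0 higher. Its own change was -0.51, and with shCPT-2 the flanking median was -0.29 and its own change -0.22. On chromosome 11, MRPL48 had flanking medians of -0.38 with shCPT-1 and -0.29 with shCPT-2, with 16 and 15 of 20 genes lower, and MRPL49 had -0.23 and -0.20, with 12 and 13 lower. MRPL49 itself changed by more than these medians. MRPL21 and MRPL16, also on chromosome 11 and chosen after their values were seen, lay among lowered genes without a change of their own: with shCPT-1 their flanking medians were -0.36 and -0.34, and their own changes 0.00 and 0.00 (adjusted p = 0.988 and 0.995).

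Chromosome 3 showed the opposite direction. MRPL47, kin to bacterial L29, had a flanking median of 0.43 with shCPT-1 and 0.31 with shCPT-2, with 16 and 15 of 20 genes higher, and its own changes were 0.16 ± 0.05 (adjusted p = 0.0267; 0.0740 without scramble 1 and 2) and 0.07 ± 0.05 (adjusted p = 0.28). MRPS22 had flanking medians of 0.33 and 0.21 and MRPL3 of 0.23 and 0.22, near their own changes of 0.35 and 0.33 for MRPS22 and 0.25 and 0.22 for MRPL3. Over whole chromosomes, 44.9% of 748 tested genes on chromosome 11 were lower with shCPT-1 and 44.7% with shCPT-2, against 21.3% with ETX. On chromosome 3, 49.6% of 712 tested genes were higher with shCPT-1 and 41.7% with shCPT-2, against 27.4% with ETX. The 7 members on chromosome 11 included 2 lower and 0 higher with shCPT-1 and 4 lower and 0 higher with shCPT-2. The 4 on chromosome 3 included 3 higher and 0 lower with shCPT-1 and 2 higher and 0 lower with shCPT-2. The part of chromosomal position in the members' changes was not tested.

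**Figure D5:**
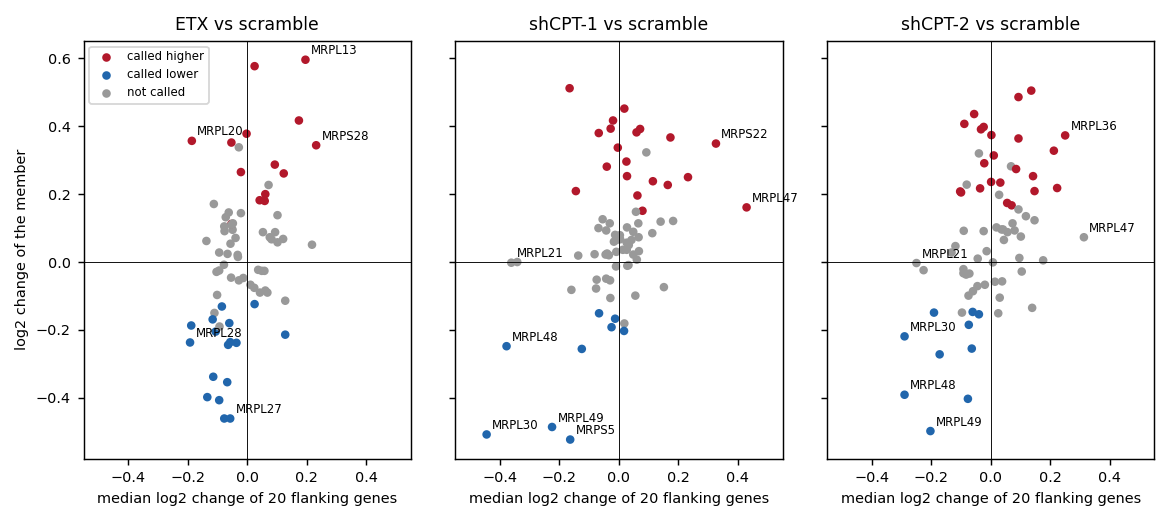
Log2 change of each of the 75 genes (vertical) against the median log2 change of its flanking tested genes, up to 10 on either side (horizontal), in the 3 comparisons with scramble. Points are coloured by call. MRPL30 and MRPL48 lie at the left with shCPT-1 (flanking medians -0.45 and -0.38) and MRPL47 at the right (0.43), while with ETX the points stay nearer to the centre.

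Genes that act with the mitoribosome were counted beside it, and their counts are to be read against the background shares given above (with shCPT-2, 25.6% of all tested genes higher and 20.5% lower). Of 19 tested genes of mitochondrial transcription and RNA processing, 13 rose (68.4%) and 0 fell with shCPT-2 (median 0.24), 6 rose (31.6%) and 1 fell with shCPT-1 (median 0.05), and 6 rose (31.6%) and 4 fell with ETX (median 0.00). Without scramble 1 and 2 the numbers were 10 and 0 with shCPT-2, 3 and 0 with shCPT-1, and 1 and 2 with ETX, where 17.4%, 14.5% and 10% of all tested genes were higher. Between the knockdowns 9 of the 19 were higher with shCPT-2 (47.4%) and 0 lower. ELAC2, which trims the 3′ ends of mitochondrial transfer RNAs, rose by 0.75 ± 0.06 with shCPT-2 (adjusted p = 5.73e-07) and by 0.62 ± 0.06 with shCPT-1. TRMT10C, a subunit of mitochondrial RNase P, rose by 0.75 ± 0.10 with shCPT-2 and 0.70 ± 0.10 with shCPT-1, and POLRMT, the mitochondrial RNA polymerase, fell by 0.46 ± 0.09 with ETX, a call lost without scramble 1 and 2 (-0.31, adjusted p = 0.0844).

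Among 14 tested translation factors, 8 rose (57.1%) and 2 fell with shCPT-2, 7 rose (50%) and 2 fell with shCPT-1, and 4 rose (28.6%) and 1 fell with ETX. With scramble 1 and 2 left out, 5 rose and 2 fell with shCPT-2, 2 rose and 1 fell with shCPT-1, and the 4 rises and 1 fall with ETX were lost. The elongation factor gene GFM1 rose by 0.83 ± 0.10 with shCPT-2, 0.77 ± 0.10 with shCPT-1 and 0.46 ± 0.10 with ETX, the last of which was lost without those arrays (0.27, adjusted p = 0.132). LRPPRC, which stabilises mitochondrial messenger RNAs, rose by 0.48 ± 0.05 with shCPT-2, and the release factor gene MTRF1L fell by 0.48 ± 0.05 with shCPT-2 and 0.33 ± 0.05 with shCPT-1. Of 26 tested genes of mitoribosome assembly and rRNA modification, 10 rose (38.5%) and 3 fell with shCPT-2, 5 rose (19.2%) and 5 fell with shCPT-1, and 2 rose (7.69%) and 5 fell (19.2%) with ETX. These numbers became 6 and 2 with shCPT-2, 3 and 4 with shCPT-1, and 0 and 2 with ETX without scramble 1 and 2. METTL15, a methyltransferase of the small subunit RNA, rose by 0.66 ± 0.06 with shCPT-1 and 0.40 ± 0.06 with shCPT-2, and the helicase gene DDX28 by 0.48 ± 0.04 with shCPT-2.

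Of 4 tested mitoribosomal proteins with other symbols, PTCD3, a small subunit protein, fell by 0.50 ± 0.05 with shCPT-1 (adjusted p = 3.83e-06), 0.16 ± 0.05 with shCPT-2 and 0.22 ± 0.05 with ETX. GADD45GIP1, of the large subunit, fell by 0.34 ± 0.06 with ETX and 0.25 ± 0.06 with shCPT-2. The small subunit genes CHCHD1 and DAP3 rose, CHCHD1 by 0.25 ± 0.09 with ETX (adjusted p = 0.0342) and 0.24 ± 0.09 with shCPT-1 (adjusted p = 0.0366), and DAP3 by 0.16 ± 0.05 with shCPT-2 (adjusted p = 0.011). Of these calls, those of PTCD3 with shCPT-1 and GADD45GIP1 with ETX held without scramble 1 and 2 and the others did not. Among 20 tested mitochondrial aminoacyl-tRNA synthetases, 8 rose (40%) and 3 fell with shCPT-2, 6 rose (30%) and 5 fell with shCPT-1, and 6 rose (30%) and 6 fell (30%) with ETX. The synthetase counts were 5 and 0 with shCPT-2, 4 and 1 with shCPT-1, and 4 and 3 with ETX without scramble 1 and 2. Of 9 tested regulators of mitochondrial biogenesis, 4 rose (44.4%) and 2 fell with ETX. With shCPT-1, 2 rose (22.2%) and 2 fell, and with shCPT-2, 6 rose (66.7%) and 1 fell. PPARGC1B (-0.30) and ESRRA (-0.21) fell with shCPT-1 and PPRC1 (-0.24) fell with ETX. Without scramble 1 and 2 they were at -0.36, -0.20 and -0.20, and those of ESRRA and PPRC1 were not called. PPARGC1B and PPRC1 rose with shCPT-2 (0.21 and 0.22). GABPA rose by 0.30 with ETX and YY1 by 0.26 with shCPT-2. The change of GABPA with ETX was 0.37 without scramble 1 and 2 and was not called there. MYC rose by 1.20 ± 0.18 with ETX, 1.07 ± 0.18 with shCPT-2 and 0.71 ± 0.18 with shCPT-1. PPARGC1A rose by 0.57 ± 0.06 with ETX. The call of MYC with shCPT-1 was lost without scramble 1 and 2 (0.36, adjusted p = 0.256). The 53 tested proteins of the cytosolic ribosome had 5 higher and 8 lower with ETX, 9 and 7 with shCPT-1, and 8 and 7 with shCPT-2, shares that lay below the background in both directions. Fewer of them were called in each direction without scramble 1 and 2, as was so for all tested genes. With 1 scramble array left, the numbers given for the other lists without those arrays do not show that a change was absent. The falls counted there were not set against those of all tested genes.

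Several probe sets read the same gene in part of the set, which bears on single values. In total, 37 genes had several probe sets and 30 had several that passed the filter. Kept probe sets of MRPL35 and MRPS12 were called in opposite directions with ETX, and those of MRPS30 between shCPT-2 and shCPT-1, so no direction is given for these genes there. With ETX the opposed values were 0.28 and -0.14 for MRPL35, and 0.63 and 0.31 against -0.20 for MRPS12, and between the knockdowns 0.21 and -0.23 for MRPS30. The 4 probe sets of MRPS22 all rose in both knockdowns, by 0.29 to 0.35 with shCPT-1 and 0.24 to 0.33 with shCPT-2. For 41 of the 75 genes a kept probe set was free of the suffixes that mark possible hybridisation to other transcripts. MRPL49, MRPL18, MRPL48, MRPL30 and MRPS2 were read by such a probe set, while MRPL27, MRPL23 and MRPS22 were not.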

How the data were processed

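Total RNA of MDA231 cells was read on 12 single-colour Affymetrix arrays, 3 for each of 4 groups named by the source labels. The authors deposited 1 linear intensity per probe set, made with RMA per the submitters' processing notes. RMA corrects background, normalizes arrays and summarises probes. The sources used here give neither its version nor settings. Array medians ran between 74.9 and 77.2, and the number of arrays limits the precision.

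Log2 values were taken of the deposited intensities. Gene symbols are those of the platform annotation (41091 probe sets with 1 symbol, 1801 with several, 11721 with none). Probe sets had to exceed the array median on 3 or more arrays, and each gene was represented by its kept probe set of highest mean. All 12 arrays entered 1 limma fit (version 3.58.1, in R 4.3.3; lmFit, eBayes, 8 residual and 4.117 prior degrees of freedom), two-sided and adjusted by Benjamini-Hochberg over 12886 genes. With 3 arrays against 3, exact permutation cannot give a p under 0.1 and was left out. The fit was tested on simulated data. Alternatives changed the filter, the probe set rule, the normalization, the eBayes settings, the weights, the covariates (replicate block, actin) and the arrays used.

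Named genes are the 10 largest called changes per direction against scramble, the 5 largest between treatments, genes called alike in all 3 comparisons with scramble, genes with opposed probe sets, the 5 highest and 5 lowest signals, and those of the other lists with the smallest p. Genes outside this rule (MRPL4, MRPL16, MRPL21, MRPL58 and the start-site neighbours of members) were chosen after their values were seen. Members and lists were chosen with earlier results of these data known. Promoter windows and gene order are from RefSeq (GRCh38.p14). Python 3.11.15 was used with pandas 2.3.3, numpy 2.4.6 and, for figures, matplotlib 3.10.9.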

Additional observations from a re-analysis of the deposited data

How the results depend on the processing

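Of 25 alternatives, those that changed the scramble arrays, the weights or the probe sets moved the counts most. Leaving out 1 array at a time gave 6 to 23 genes higher with ETX (6 without scramble 1, 7 without scramble 2, 23 without scramble 3, 8 or 9 without an ETX array) and a median change of 0.001 to 0.065. It gave 6 to 12 lower with shCPT-2 (6 without shCPT-2 1). The numbers lower were 4 to 12 for shCPT-1 against ETX (4 or 5 without any 1 ETX array, shCPT-1 2 or shCPT-1 3), 6 to 11 for shCPT-2 against ETX (6 without shCPT-2 1) and 3 to 12 for shCPT-2 against shCPT-1 (3 without shCPT-2 3, 5 without shCPT-1 1 or shCPT-2 1). Leaving out scramble 1 and 2 together, chosen after seeing the data, gave medians of -0.061 with ETX, 0.003 with shCPT-1 and 0.006 with shCPT-2. It left 1 scramble array, and calls became fewer among these genes and among all tested genes. The actin covariate gave 6 higher with ETX (median -0.026), 12 higher with shCPT-2 (median 0.034) and 14 lower for shCPT-1 against ETX. Array weights gave 30 higher with ETX, 34 higher and 15 lower with shCPT-1, 38 and 19 with shCPT-2, 19 lower for shCPT-1 against ETX, 34 higher for shCPT-2 against ETX, and 25 higher and 18 lower for shCPT-2 against shCPT-1. For shCPT-1 against ETX, 4 were lower with no filter and 5 with a filter at the 25th percentile. Each kept probe set taken by itself gave a median of -0.023 with ETX. Without probe sets of possible cross-hybridisation 41 genes were left, which lowers counts by construction. These gave 4 higher and 8 lower with ETX (median -0.025), 8 higher with shCPT-1 (median 0.022), 11 higher with shCPT-2, 9 and 5 for shCPT-1 against ETX, 9 and 5 for shCPT-2 against ETX, 5 and 3 for shCPT-2 against shCPT-1, and 24 in the F test. Other causes were not tested.

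Signs turned in 4 results. With ETX, MRPL35 was -0.143 without probe sets of possible cross-hybridisation, MRPL2 was 0.016 on the mean of its kept probe sets and MRPS12 was -0.004 without scramble 1 and 2. For shCPT-2 against ETX, MRPS10 was -0.019 on the mean of its kept probe sets. Replicate numbers did not pair the arrays: same-numbered deviations correlated between -0.456 and 0.328, over 0.1 in 8 of 18 pairs, and 3 of 12 arrays correlated best with their own number. The replicate block gave 13 genes higher and 16 lower with ETX, moved no count by over 1.5 times, and left 160 of 177 single-gene results on the same side of the threshold. The median standard error of a gene's log2 change was 0.057, which limits how small a change could be called.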
